A study of Mus musculus with 15 samples.

Results

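Transcript levels of 9 genes that cause inherited ataxia in people, and that do not encode ion channels, were followed in mouse cerebellum with and without an ataxia-causing ATXN1 transgene. The genes were Atxn2, Atxn3, Atxn7, Atxn10, Tbp, Ttbk2, Afg3l2, Elovl4 and Elovl5, taken by symbol from count tables of 24421 genes, and all 9 were among the 15843 genes with enough counts to be tested. Most of them differed little between genotypes. In cerebella with the ATXN1[82Q] transgene, Elovl4 was 1.12-fold lower and Elovl5 1.11-fold higher than in wild type, so this pair of fatty acid elongases moved in opposite directions. Afg3l2, a mitochondrial protease subunit, was 1.06-fold lower, a call that was lost in several alternative settings. None of the 9 passed the test against wild type when the transgene carried V591A and S602D.

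Inherited ataxias are disorders of coordination in which cerebellar neurons, often Purkinje cells, fail. They arise through unlike proteins. In people, a CAG repeat that lengthens within the coding sequence stretches a glutamine tract in ATXN2, ATXN3, ATXN7 and TBP, as it does in ATXN1. ATXN10 ataxia comes from a repeat in an intron, and TTBK2, AFG3L2, ELOVL4 and ELOVL5 ataxias come from changes that truncate or alter the protein. ELOVL4 makes very long chain fatty acids and ELOVL5 elongates polyunsaturated ones, and both act in the endoplasmic reticulum.

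RNA sequencing was performed on cerebellum of FVB mice of 3 genotypes, with 5 libraries each. Wild-type mice carried no transgene. ATXN1[82Q] mice carried human ATXN1 with 82 glutamines, and ATXN1[82Q]V591A;S602D mice carried the same tract with V591A and S602D, substitutions known to weaken the binding of ATXN1 to the transcriptional repressor CIC, called the substituted transgene here. Both transgenes were driven by Pcp2, a promoter active in Purkinje cells, which carry all output of the cerebellar cortex. The labels used here give no age, sex or founder line. They also leave it unsaid whether every library is 1 mouse, so p-values measure the spread between libraries, which may in part be technical.

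Counts on genes ran from 36467948 to 42818401 per library, and the 9 genes had between 1193 and 10792 counts in a library. Levels are given in CPM, the count of a gene per 1000000 counts on the 15843 tested genes, scaled by the trimmed mean of M-values. Purkinje cell markers were present in all libraries, with a summed level of 10390 to 11580 CPM in wild type, 4550 to 5323 CPM in ATXN1[82Q] and 7480 to 9925 CPM with the substituted transgene. Neighbouring tissue was present in some libraries: the choroid plexus transcript Ttr was at 1090 CPM or more in 8 libraries (2 of wild type, 3 of each transgene) and under 100 CPM in the other 7. Xist, which is transcribed from the inactive X of female tissue, was at 1056 CPM or more in 2 libraries per genotype. Mouse Atxn1 did not pass in edgeR in any comparison (adjusted p = 0.193, 0.112 and 0.202), while DESeq2 called it higher with the substituted transgene than in wild type (log2 fold change 0.26, adjusted p = 0.0303). Neither transgene's own level was measured, and whether reads of the human transgenes were counted on mouse Atxn1 was not examined. An effect of the substitutions and one of transgene level or of the line cannot be told apart.

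The 4 members whose human counterparts carry an expandable glutamine tract are shown first by the longest run of glutamine codons in the mouse gene. The longest run of glutamine codons over the coding transcripts of each gene is in capitals, with 5 codons on either side in lower case. The sequences were read from GENCODE M21 (GRCm38) on the coding strand. Exon and codon numbers belong to the transcript with that run, or to the one with the longest coding sequence where transcripts tied. Tbp, the TATA-binding protein, held the longest with 13 codons, 9 of them CAG and 4 CAA. Atxn3, a deubiquitinase, held 6, Atxn7, a subunit of the SAGA chromatin complex, held 5, and Atxn2, an RNA-binding protein of ribonucleoprotein granules, held 3. The longest run of mouse Atxn1 was likewise of 3 codons.
Atxn2: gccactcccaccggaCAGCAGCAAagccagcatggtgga
Atxn3: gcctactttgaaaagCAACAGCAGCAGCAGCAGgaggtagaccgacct
Atxn7: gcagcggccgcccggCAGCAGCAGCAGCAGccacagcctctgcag
Tbp: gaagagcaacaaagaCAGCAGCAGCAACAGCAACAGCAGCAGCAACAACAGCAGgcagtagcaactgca

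The Atxn2 run lies in exon 22 at chr5:121810946-121810954 on the plus strand and starts at codon 1129 of 1286. The Atxn3 run lies in exon 10 at chr12:101926563-101926580 on the minus strand and starts at codon 292 of 355, with an exon junction inside the printed stretch. The Atxn7 run lies in exon 2 at chr14:14013156-14013170 on the plus strand and starts at codon 25 of 920. The Tbp run lies in exon 4 at chr17:15504391-15504429 on the plus strand and starts at codon 58 of 316. Whether a run sits at the place of the human tract was not examined. None of these 4 genes passed the test in any of the 3 comparisons.

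The 250 bases upstream of the annotated start of Elovl4 and Elovl5 are shown because these are the members that differed most clearly between genotypes, and in opposite directions. Both genes lie on mouse chromosome 9, and the sequences are from RefSeq (GRCm38.p6), written 5′ to 3′ on the gene's strand. Capitals in the Elovl5 sequence mark CACGTG, known as an E-box, and ATTGG, the reverse complement of CCAAT.
Elovl4: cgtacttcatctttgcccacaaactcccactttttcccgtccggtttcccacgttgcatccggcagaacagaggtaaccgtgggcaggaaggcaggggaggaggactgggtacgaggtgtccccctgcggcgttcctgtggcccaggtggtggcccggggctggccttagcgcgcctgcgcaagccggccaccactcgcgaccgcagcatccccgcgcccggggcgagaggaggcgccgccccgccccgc
Elovl5: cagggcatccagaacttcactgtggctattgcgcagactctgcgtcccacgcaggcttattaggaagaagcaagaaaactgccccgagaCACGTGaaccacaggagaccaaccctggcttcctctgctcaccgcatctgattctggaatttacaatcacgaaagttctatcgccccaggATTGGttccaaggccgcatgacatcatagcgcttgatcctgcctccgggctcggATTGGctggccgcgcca

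The Elovl4 sequence is chr9:83806306-83806555 on the minus strand and has a GC content of 69.6%. The Elovl5 sequence is chr9:77917115-77917364 on the plus strand and has a GC content of 55.6%. CIC is known to bind octamers spelled TGAATGNA with A or G at N, and this motif was searched on both strands. It was in neither sequence. The marked letters of Elovl5 lie at -161 to -156 (CACGTG), -71 to -67 and -17 to -13 (ATTGG) from the start. The search covered 8 of the 9 genes, with 10 start sites, and left out Afg3l2. The octamer was upstream of 1 of these sites, the second start of Atxn2, as TGAATGGA at -212 to -205 from it. It was in 2.07% of all 32851 upstream sequences of that length. CACGTG was upstream of Atxn2, Atxn3 and Elovl5 and in 6.02% of all sequences, CCAAT upstream of Atxn3, Ttbk2 and Elovl5 and in 33.8%, and TGACGTCA upstream of none of the 8 and in 1.55%. The last 3 motifs were chosen after the sequences were read. A match describes letters, not binding, and the motifs do not overlap one another within either printed sequence.

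ATXN1[82Q] cerebella were compared with wild type to ask whether a Purkinje cell transgene for one ataxia moved the genes of others. Elovl5 was higher and Elovl4 and Afg3l2 were lower, and the other 6 did not pass the test. In this comparison 31.5% of all 15843 genes passed, 16.6% higher and 14.9% lower. With 3 of 9 called, the members were therefore near the background, and the count is no result about them. Their log2 fold changes had a median of -0.04, against 0.01 for all tested genes. The genotypes did not overlap in 3 of the 9, against 19.2% of all genes.

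Elovl5 (chromosome 9, 77917364 to 77984519, plus strand, GRCm38) elongates polyunsaturated fatty acids, and its human counterpart causes SCA38. In wild type it stood at 153.9, 148.3, 141.0, 153.0 and 143.5 CPM in replicates 1 to 5. In ATXN1[82Q] it stood at 170.1, 168.1, 165.6, 155.4 and 164.9 CPM. With the substituted transgene it stood at 145.8, 144.8, 147.4, 149.8 and 144.4 CPM. All 5 ATXN1[82Q] libraries lay above all 10 others, replicate 4 closest to them, while the other two genotypes overlapped. The mean was 164.8 ± 5.66 CPM in ATXN1[82Q] and 147.9 ± 5.68 CPM in wild type (SD, n = 5). The log2 fold change was 0.16 (SE 0.0299, edgeR adjusted p = 0.000803), a level 11.4% higher with a 95% interval from 6.62% to 16.4%.

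Elovl4 (chromosome 9, 83778692 to 83806277, minus strand) makes very long chain fatty acids, and its human counterpart causes SCA34. In wild type it stood at 72.2, 72.8, 75.3, 72.9 and 70.8 CPM in replicates 1 to 5. In ATXN1[82Q] it stood at 66.7, 65.6, 66.5, 63.5 and 62.7 CPM. With the substituted transgene it stood at 73.1, 71.1, 68.8, 71.9 and 68.9 CPM. All 5 ATXN1[82Q] libraries lay below all 10 others, and the other two genotypes overlapped. The mean was 65.0 ± 1.81 CPM in ATXN1[82Q] and 72.8 ± 1.65 CPM in wild type (SD, n = 5). The log2 fold change was -0.16 (SE 0.0299, edgeR adjusted p = 0.000519), a relative difference of -10.7% with a 95% interval from -14.6% to -6.75%.

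**Figure D1:**
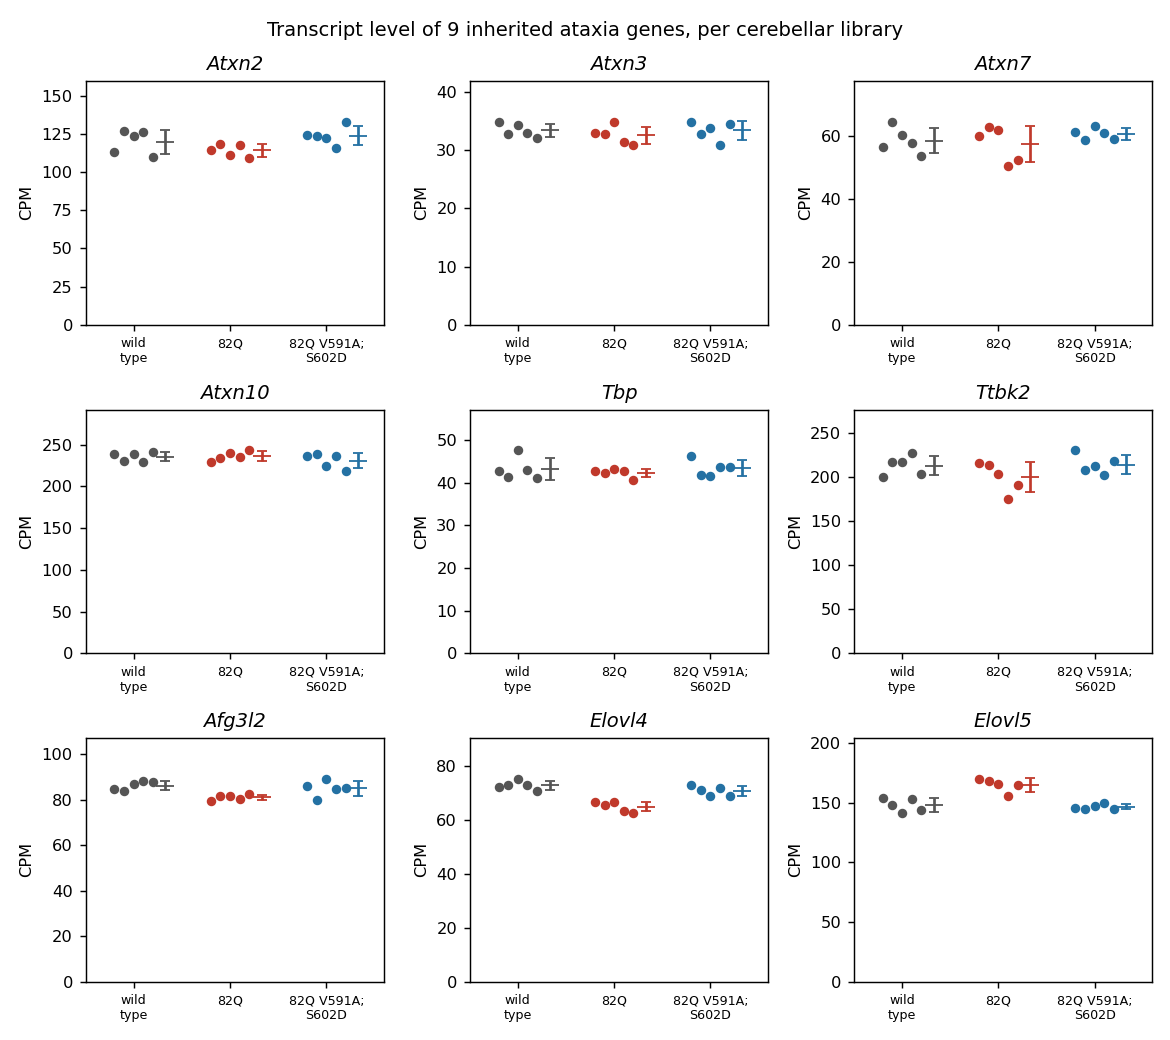
Level of each of the 9 genes in CPM (vertical axes, from 0) in the 5 libraries of wild type, ATXN1[82Q] (82Q) and the substituted transgene (82Q V591A;S602D), one point per library in replicate order, with the mean and SD beside the points. Elovl4 and Afg3l2 sit lower and Elovl5 higher in ATXN1[82Q] than in wild type without overlap, and the differences are small beside the levels themselves.

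The opposite moves of this pair changed their proportion. Per kb of the longest coding transcript, Elovl5 was 2.19 ± 0.108 times the level of Elovl4 in wild type, 2.74 ± 0.0757 times in ATXN1[82Q] and 2.23 ± 0.061 times with the substituted transgene (SD, n = 5). The ratio ran from 2.64 to 2.84 in ATXN1[82Q] libraries, from 2.02 to 2.30 in wild type and from 2.15 to 2.31 with the substituted transgene. ATXN1[82Q] did not overlap the others. It restates the 2 differences above and was not tested on its own.

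**Figure D2:**
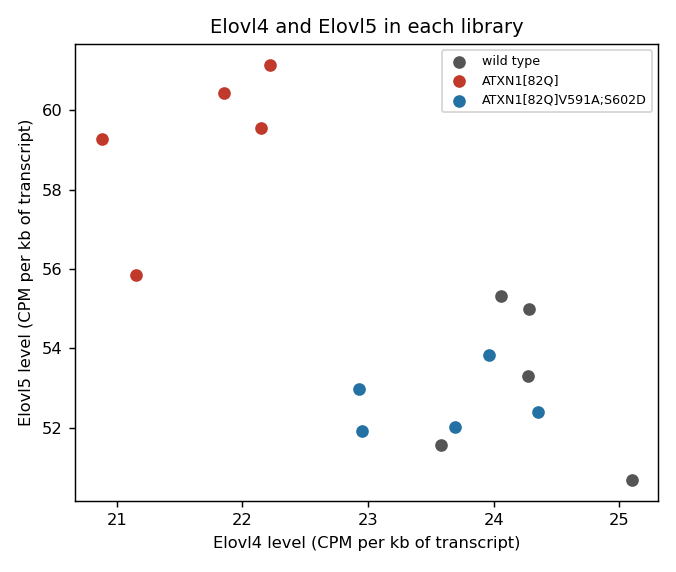
Level of Elovl5 (vertical axis) against that of Elovl4 (horizontal axis), both in CPM per kb of transcript, one point per library coloured by genotype, on axes that do not start at 0. The 5 ATXN1[82Q] libraries lie to the upper left of the other 10, with ratios from 2.64 to 2.84, and wild type and the substituted transgene share one cloud.

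Cell markers moved in the same libraries. In bulk tissue, fewer cells of a type and less RNA per cell cannot be told apart. Oligodendrocyte markers summed to 7453 to 9380 CPM in ATXN1[82Q] and 5088 to 7508 CPM in wild type, and 7 of 10 rose and none fell. Microglial markers summed to 211 to 244 CPM against 111 to 126 CPM, and all 10 rose. Granule cell markers summed to 5594 to 6033 CPM against 6947 to 8120 CPM, and 7 of 9 fell and none rose. Of 12 Purkinje cell markers 11 fell, of 10 astrocyte and Bergmann glia markers 5 were called higher and 3 lower, and no marker was at 0 in all libraries. The part of these cell types in the Elovl4 and Elovl5 differences was not tested. ATXN1[82Q] replicates 2 and 5 carried the most transcript of brainstem neuron genes, 26.7 and 38.9 CPM summed, against 14.5 to 16.3 CPM in wild type, and only 4 of those 12 genes had enough counts to be tested. Without these 2 libraries, 2 of 10 oligodendrocyte markers were called higher and 4 of 9 granule cell markers lower. The log2 fold changes were then 0.14 for Elovl5 (edgeR adjusted p = 0.0112) and -0.16 for Elovl4 (adjusted p = 0.00564).

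Genes that work beside these elongases moved in both directions. Of 19 other genes of fatty acid elongation and desaturation that were tested, 7 rose, 3 fell and 9 did not pass, with a median log2 fold change of 0.08 against 0.01 for all genes. The 10 called of 19 stand beside 31.5% of all genes, a difference in share that was not tested. Each elongation cycle runs through an elongase, a reductase, a dehydratase and a second reductase. Of the dehydratases, Hacd4 rose 1.43-fold from 1.91 ± 0.239 to 2.73 ± 0.225 CPM (log2 fold change 0.51, SE 0.125, edgeR adjusted p = 0.00477), and Hacd2 rose 1.21-fold from 29.1 ± 2.16 to 35.2 ± 2.41 CPM (adjusted p = 0.0011). Hacd1 and Hacd3 did not pass (log2 fold changes 0.03 and -0.02), nor did the reductases Hsd17b12 (-0.12) and Tecr (-0.11). Among the other elongases, Elovl1 rose 1.17-fold, from 23.0 ± 2.14 to 27.0 ± 2.75 CPM (adjusted p = 0.0215), Elovl2 fell 1.15-fold and Elovl6 fell 1.17-fold, and Elovl7 did not pass (log2 fold change 0.34, SE 0.134, adjusted p = 0.0629). Fads1 and Fads2, the desaturases that work in the same polyunsaturated pathway as Elovl5, rose 1.11-fold and 1.16-fold. Cers2, a ceramide synthase that takes very long acyl chains, rose 1.21-fold (adjusted p = 0.000828). Acsl3 rose 1.15-fold and Acsl4 fell 1.16-fold, both acyl-CoA synthetases.

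**Figure D3:**
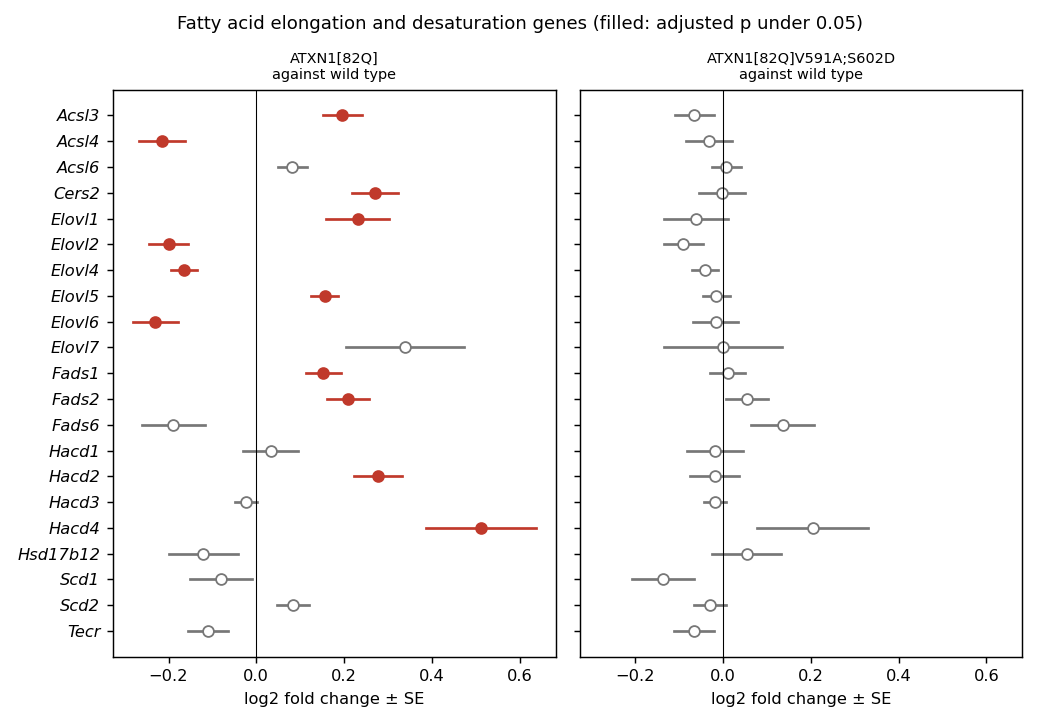
Log2 fold change with its SE (horizontal axis) of Elovl4, Elovl5 and 19 other tested genes of fatty acid elongation and desaturation, in ATXN1[82Q] against wild type (left) and the substituted transgene against wild type (right), filled where the adjusted p was under 0.05. On the left Elovl5 and 7 others rose while Elovl4 and 3 others fell, and on the right no gene passed.

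Afg3l2 (chromosome 18, 67404764 to 67449172, minus strand) encodes a subunit of the m-AAA protease of the inner mitochondrial membrane, and its human counterpart causes SCA28. In wild type it stood at 84.6, 83.9, 86.8, 88.0 and 87.5 CPM in replicates 1 to 5. In ATXN1[82Q] it stood at 79.5, 81.4, 81.7, 80.2 and 82.4 CPM. These groups did not overlap, by a gap narrower than the range of either. The means were 81.1 ± 1.18 CPM in ATXN1[82Q] and 86.2 ± 1.81 CPM in wild type (SD, n = 5), a log2 fold change of -0.09 (SE 0.0296, edgeR adjusted p = 0.0314). The call was lost without ATXN1[82Q] replicate 1 (adjusted p = 0.0525) or replicate 4 (0.0608), without wild-type replicate 3 (0.0652), 4 (0.0713) or 5 (0.0554), and with only libraries under 100 CPM of Ttr (0.113).

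The protein partners of Afg3l2 were mostly as little changed. Of 16 other genes of mitochondrial proteolysis and of the calcium uniporter, 4 fell, 1 rose and 11 did not pass, with a median log2 fold change of 0.00. Over all genes 31.5% passed, so the share called was near the background and is no result about this list. Spg7, which forms the m-AAA protease together with Afg3l2 and also causes ataxia, fell 1.10-fold from 68.7 ± 1.82 to 62.8 ± 1.24 CPM (log2 fold change -0.13, SE 0.0374, edgeR adjusted p = 0.0131). Mcu, the pore of the calcium uniporter, fell 1.23-fold from 49.98 ± 1.74 to 40.6 ± 2.06 CPM (adjusted p = 2.07e-05), while its regulator Micu2 rose 1.15-fold (adjusted p = 0.0248). Clpx, the unfolding subunit of a matrix protease, fell 1.08-fold (adjusted p = 0.0269). With only libraries under 100 CPM of Ttr, 2 of the 16 were called lower and 0 higher, so the Micu2 call was lost. The same counts were found without ATXN1[82Q] replicates 2 and 5.

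**Figure D4:**
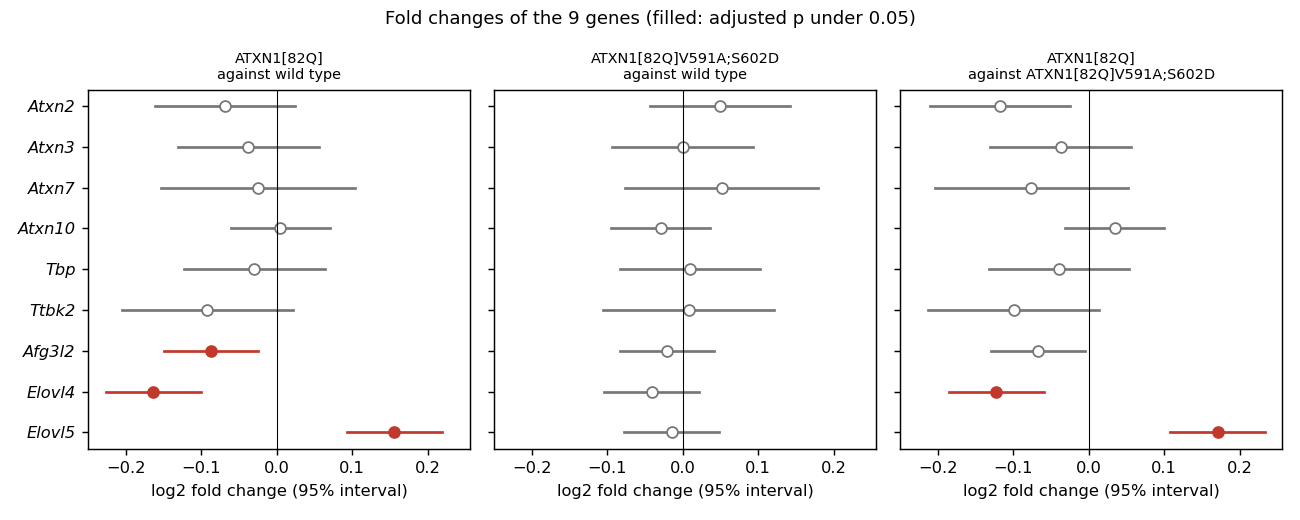
Log2 fold change with its unadjusted 95% interval (horizontal axes) of the 9 genes in the 3 comparisons of genotypes, filled where the adjusted p was under 0.05. Elovl4 and Elovl5 are called on opposite sides of 0 in both comparisons of ATXN1[82Q], Afg3l2 in the first alone, and in the substituted transgene against wild type all 9 intervals span 0.

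The genes whose human counterparts carry an expandable glutamine tract did not pass in ATXN1[82Q] against wild type. Atxn2 (chromosome 5, 121711337 to 121816493, plus strand; SCA2 in people) stood at 112.8, 126.5, 123.2, 126.1 and 109.9 CPM in wild type and at 114.3, 118.5, 111.3, 117.7 and 108.9 CPM in ATXN1[82Q]. The ATXN1[82Q] range overlapped the lower part of the wild-type range (log2 fold change -0.07, SE 0.044, edgeR adjusted p = 0.255). With only libraries under 100 CPM of Ttr it was called (log2 fold change -0.15, adjusted p = 0.0231). Atxn3 (chromosome 12, 101918901 to 101958246, minus strand; SCA3) ran from 32.1 to 34.7 CPM in wild type and from 30.9 to 34.7 CPM in ATXN1[82Q] (log2 fold change -0.04, adjusted p = 0.552). Atxn7 (chromosome 14, 13961440 to 14107302, plus strand; SCA7) ran from 53.8 to 64.7 CPM and from 50.6 to 62.9 CPM (log2 fold change -0.02, adjusted p = 0.786). In ATXN1[82Q] its replicates 4 and 5 stood at 50.6 and 52.5 CPM and the other 3 at 60.1 to 62.9 CPM, the widest spread of any member at 9.91% of the mean.

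Tbp (chromosome 17, 15499888 to 15528379, plus strand; SCA17) ran from 41.1 to 47.6 CPM in wild type and from 40.6 to 43.2 CPM in ATXN1[82Q] (log2 fold change -0.03, edgeR adjusted p = 0.643). Exons of Pdcd2 on the other strand overlap 19% of its exon length, so reads of these genes may have been shared or set aside. Its values are uncertain to that extent.

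Atxn10 (chromosome 15, 85336245 to 85463212, plus strand; SCA10), an armadillo repeat protein, ran from 229.5 to 241.6 CPM in wild type and from 229.3 to 243.5 CPM in ATXN1[82Q], the same range within 2 CPM at either end. Its log2 fold change was 0.00 (SE 0.0311, edgeR adjusted p = 0.924), with a 95% interval from -4.13% to 5.00%. Ttbk2 (chromosome 2, 120732816 to 120850604, minus strand; SCA11), a kinase that licenses the basal body to build a primary cilium, stood at 200.8, 217.1, 217.1, 227.7 and 203.6 CPM in wild type. It stood at 216.4, 213.5, 204.1, 175.0 and 191.5 CPM in ATXN1[82Q]. Replicates 4 and 5 lay below every wild-type library and the other 3 within their range, so the groups overlapped (log2 fold change -0.09, SE 0.0538, adjusted p = 0.209). Exons of Cdan1 on the same strand overlap 29.9% of the exon length of Ttbk2, so its count is uncertain. Over the 6 members that did not pass, the 95% intervals ran from -13.3% to 7.44%, which bounds the differences they may hold.

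Partners of these genes were counted in the same way, beside the 31.5% of all genes that passed, and no difference in share was tested. Of 31 subunits of SAGA and TFIID, the complexes of Atxn7 and Tbp, 1 rose, 3 fell and 27 did not pass (median log2 fold change -0.01). The rise was Supt3 (1.23-fold, edgeR adjusted p = 0.0148), and the falls were Kat2b, a histone acetyltransferase (1.12-fold, adjusted p = 0.01), Tada3 (1.10-fold) and Taf6 (1.08-fold). With only libraries under 100 CPM of Ttr none of the 31 was called. Of 13 RNA granule partners of Atxn2, 3 fell and none rose (median -0.03), among them Caprin1 (1.12-fold, adjusted p = 0.00908) and G3bp2 (1.11-fold, adjusted p = 0.0016). Of 15 ubiquitin and p97 partners of Atxn3, 5 fell and 1 rose (median -0.08). Josd1, a deubiquitinase of the same family as Atxn3, fell 1.15-fold from 82.2 ± 3.62 to 71.7 ± 2.68 CPM (adjusted p = 0.00114), and Park2, the ubiquitin ligase parkin, rose 1.27-fold from 8.34 ± 0.84 to 10.6 ± 1.38 CPM (adjusted p = 0.0133).

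Of 15 basal body and kinase partners of Ttbk2, 4 fell and none rose (median -0.03). Inpp5e, a phosphatase of the ciliary membrane, fell 1.23-fold from 95.6 ± 6.75 to 77.8 ± 3.54 CPM (edgeR adjusted p = 0.000246), and the paralogue Ttbk1 fell 1.14-fold from 90.9 ± 8.01 to 79.8 ± 4.85 CPM (adjusted p = 0.0173). Mapt, which encodes the microtubule protein tau, a substrate of both kinases, fell 1.10-fold (adjusted p = 0.0199). Of 9 ataxin paralogues and other polyglutamine genes, 2 fell and none rose. These were Atxn7l3, a paralogue of Atxn7 in the deubiquitinase module of SAGA (1.12-fold, adjusted p = 0.00489), and Atxn7l3b (1.07-fold, adjusted p = 0.0042).

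Some other ataxia genes moved further in the same libraries. Of 38 other tested ataxia genes that are not ion channels, 11 fell, 2 rose and 25 did not pass (median log2 fold change -0.09). Over all genes 31.5% passed, 16.6% higher and 14.9% lower, and no difference in share was tested for this list or the next. Car8, which binds the IP3 receptor, fell 2.81-fold (edgeR adjusted p = 7.68e-10) and also stands on the list of Purkinje cell markers. Of 12 ataxia genes for ion channels and calcium release, 9 fell and none rose (median -0.43), among them Itpr1, an IP3 receptor (2.75-fold), and Cacna1g, a calcium channel (2.35-fold). Itpr1 also stands on the list of Purkinje cell markers, of which 11 of 12 fell. The 3 called members lay between -0.16 and 0.16 on that scale. Over all genes, called rises had a median log2 fold change of 0.44 and called falls one of -0.23, and 27.5% of the called genes moved by less than 0.2, the range in which the 3 members lie.

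**Figure D5:**
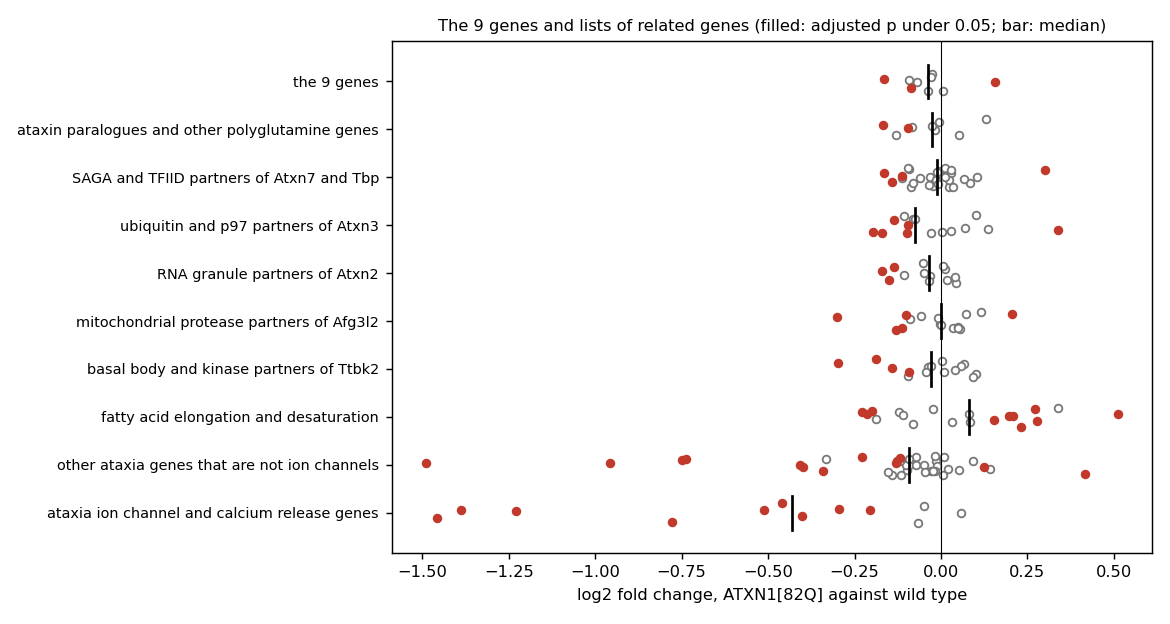
Log2 fold change in ATXN1[82Q] against wild type (horizontal axis) of the 9 genes and of the tested genes of 9 related lists, one point per gene, filled where the adjusted p was under 0.05, with the median as a bar. The 9 genes lie between -0.16 and 0.16, and ion channel and calcium release genes reach -1.46 with a median of -0.43.

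The substituted transgene was set against wild type to ask what remains when the binding to CIC is weakened, and none of the 9 genes passed the test. None had an unadjusted p under 0.05 in edgeR, none was called by DESeq2, and all 9 overlapped between the genotypes. Of all genes 1.41% passed, 0.208% higher and 1.2% lower, and 3.16% did not overlap. The log2 fold changes of the members ran from -0.04 (Elovl4) to 0.05 (Atxn7), and their adjusted p from 0.636 to 0.9995. The 95% intervals reached from -7.07% to 13.3% over the 9 genes. Elovl5 had an interval from -5.28% to 3.41% and Elovl4 one from -6.97% to 1.53%, which leave out the estimates seen in ATXN1[82Q]. Elovl5 stood at 146.4 ± 2.18 CPM and Elovl4 at 70.8 ± 1.88 CPM (SD, n = 5). In edgeR none of the 19 fatty acid genes passed, and none had an unadjusted p under 0.05. No gene of the 5 lists of partners of the other members passed in edgeR either, with 1 to 3 genes of each list at an unadjusted p under 0.05. DESeq2 called none of the fatty acid genes and 1 of these partners, Mcu, lower (log2 fold change -0.14, adjusted p = 0.0234). Among the other ataxia genes Car8 fell 1.38-fold (adjusted p = 0.0025).

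The transgenes were then compared with each other, and 2 of the 9 genes passed, against 28.1% of all genes (13.5% higher, 14.6% lower). The share of members was again near the background. This comparison and the first share the ATXN1[82Q] libraries. Elovl5 was 1.13-fold higher in ATXN1[82Q] than with the substituted transgene (log2 fold change 0.17, SE 0.0299, edgeR adjusted p = 0.000577). Elovl4 was 1.09-fold lower (log2 fold change -0.12, SE 0.03, adjusted p = 0.00608), a call lost with only libraries under 100 CPM of Ttr (log2 fold change -0.09, adjusted p = 0.323), where 2 libraries of each transgene remain. Both genes were without overlap between the transgenes, against 17.9% of all genes. So the move of each elongase in ATXN1[82Q] differed from that with the substituted transgene by a direct test.

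Atxn2 stood just short of the threshold between the transgenes. With the substituted transgene its levels were 124.3, 123.7, 122.4, 115.8 and 132.9 CPM, above the ATXN1[82Q] range except replicate 4. The log2 fold change was -0.12 (SE 0.0439, edgeR adjusted p = 0.0547). It was called in 6 of 19 alternatives, among them without ATXN1[82Q] replicate 2 (adjusted p = 0.0481), without replicate 4 of the substituted transgene (0.0257) and by DESeq2 (0.0423). Afg3l2 stood at 85.8, 79.8, 89.2, 84.5 and 85.3 CPM with the substituted transgene, where replicate 2 fell among the ATXN1[82Q] libraries (log2 fold change -0.07, adjusted p = 0.0992, and 0.0284 without that replicate). Ttbk2 (log2 fold change -0.10, adjusted p = 0.177) and the other 4 members did not pass. Of the 19 fatty acid genes 7 rose and 3 fell between the transgenes, and the rises included Hacd2, Cers2 and Elovl1 at 1.23, 1.21 and 1.22-fold, while Fads6 fell 1.25-fold (adjusted p = 0.00313). With only libraries under 100 CPM of Ttr, 2 of the 19 were called higher and 0 lower.

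The members differed far more from each other than between genotypes. In wild type and per kb of the longest coding transcript, Atxn10 was highest at 121.7 ± 2.91 CPM per kb (SD, n = 5), followed by Elovl5 at 53.2 ± 2.04. Afg3l2 (27.8 ± 0.583), Atxn2 (26.8 ± 1.75) and Elovl4 (24.3 ± 0.55) came next, and their neighbours in this order overlapped between libraries. Ttbk2 (19.1 ± 0.99), Atxn7 (8.56 ± 0.6), Atxn3 (6.22 ± 0.21) and Tbp (3.37 ± 0.205) were lowest, each apart from the next. The places of Tbp, Atxn3 and Atxn7 rest on the length used. Tbp has coding transcripts of 1.65 to 12.8 kb, and per kb of the shortest one it stood at 26.1, Atxn3 at 33.4 and Atxn7 at 19.9 CPM per kb. Which transcript the reads came from was not measured. With the length of all exons, Elovl4 and Ttbk2 ranked above Afg3l2 and Atxn2. Over genotypes and genes the SD between libraries was 1.45% to 9.91% of the mean.

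Genes with the pattern most like the called members are given as a description over 15 libraries and 11747 genes, where the points share genotype and library. Elovl4 was closest to Negr1, Zdhhc2 and Btbd3 (Pearson r of log2 CPM 0.965, 0.962 and 0.961), which had log2 fold changes of -0.35, -0.37 and -0.41 in ATXN1[82Q] against wild type. Elovl5 was closest to Adamts9, Lamc3 and Pld4 (r 0.965, 0.929 and 0.927), which had log2 fold changes of 0.69, 0.43 and 0.84. Afg3l2 was closest to Pigk, 0610010F05Rik and Sptlc2 (r 0.859, 0.856 and 0.853). After the genotype means were removed, r lay between 0.775 and 0.837 for the neighbours of Elovl4, 0.617 and 0.865 for those of Elovl5 and 0.677 and 0.708 for those of Afg3l2. All these neighbours were picked by the highest r over the same 15 libraries. Their remaining r and their fold changes are therefore not separate evidence of a shared pattern.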

How the data were processed

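Gene counts of 15 cerebellar libraries were used. Per the labels' protocols, cDNA was made from 10 ng of total RNA with priming from poly(A) and at random, and inserts were 400 bp. The deposited counts were made by the authors with STAR 2.5.3a on mm10 and HTSeq, per the submitters' processing notes, which also name DESeq2. No source used here states the strand setting, the counting mode or the annotation release. The tables' summary lines, kept out of all totals, held 16.8% to 18.2% of reads as outside genes, 1.18% to 1.25% as ambiguous and 12.8% to 14.6% as multiply aligned.

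Genotypes were compared on the deposited counts with the quasi-likelihood F-test of edgeR 4.0.16 in R 4.3.3, all 15 libraries in one fit, TMM factors of 0.968 to 1.04, filterByExpr with a minimum count of 10, and a call at an adjusted p under 0.05 (Benjamini-Hochberg, 15843 genes). Reads were amplified and carry no molecular identifiers, so they are not independent molecules. The script was tested on simulated data with a smaller spread than the common one estimated here. The planted folds were larger than those of the members, so that test does not cover calls of their size. Within genotypes, 30 pairs of libraries differed beyond sampling noise (chi-square over its degrees of freedom, 5.7 to 40.6). Libraries of the same replicate number mostly did not correlate after genotype means were removed (4 of 15 such pairs above 0.1). The Pearson r of these pairs had a median of -0.109 and ran from -0.434 to 0.568, and pairs of unlike number were not compared. Alternatives used DESeq2 1.42.0, RLE size factors, no filter, 2 genotypes per fit, a replicate block, libraries left out, and Ttr or brainstem markers. Positions and lengths came from GENCODE M21, older symbols through RefSeq. Named genes were the 9 members, up to 4 called genes of a list by fold change, and the 3 nearest patterns (log2 CPM, prior count 2). Elovl2, Elovl6, Elovl7, Fads1, Fads2, Fads6, Acsl3, Acsl4, Hacd1, Hacd3, Hsd17b12 and Tecr in the first comparison were named as relatives of the elongases, outside that rule. The DESeq2 values of Mcu and Atxn1 were added after they were seen. Some genes that the rule takes are not reported here. Members, lists and motifs were chosen with earlier results of these data known.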

Additional observations from a re-analysis of the deposited data

Results flagged for a closer look

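The level of Tbp in wild-type replicate 3, 47.6 CPM, stood apart from the other 4 wild-type libraries, which ran from 41.1 to 42.9 CPM. The gap was 0.728 of the whole range of the group, above the critical value of 0.71 for 5 samples. Of 27 groups of a gene and a genotype this was the 1 past that value, and chance alone flags about 1 in 20.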

How the results depend on the processing

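Over the 9 genes and 3 comparisons, 513 values under alternatives were computed. Of these 498 stayed on their side of the threshold, 7 lost a call, 8 gained one and no called value changed sign. In ATXN1[82Q] against wild type, Elovl4 (log2 fold change -0.18 to -0.15) and Elovl5 (0.14 to 0.18) were called in 19 of 19 alternatives, and Afg3l2 in 13. With only libraries under 100 CPM of Ttr, 3234 genes were called in place of 4993 in ATXN1[82Q] against wild type and 1512 in place of 4454 between the transgenes, with 7 libraries in the fit. With DESeq2, 429 were called in place of 223 for the substituted transgene against wild type, and the cause was not tested. With one library left out, the calls over all genes ran from 3909 to 5377, from 136 to 307 and from 3502 to 4648 in the 3 comparisons, lowest for the substituted transgene without its replicate 2 (136) or 4 (142) or wild-type replicate 2 (143). Members called ran from 2 to 3, 0 to 0 and 2 to 3. With the replicate number as a block, 4681, 174 and 4152 genes and 3, 0 and 2 members were called, and 4 of 15 same-number pairs of libraries correlated above 0.1. Each member had 1193 counts or more in a library. Spread between libraries sets an SE of 0.0296 to 0.0609 on the log2 scale.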
